A study of Mus musculus with 8 samples.

Results

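DNA methylation was examined at the 7 cyclin-dependent kinase inhibitor genes of the mouse, Cdkn2a, Cdkn2b, Cdkn2c, Cdkn2d, Cdkn1a, Cdkn1b and Cdkn1c, in colon organoids with and without the BrafV600E oncogene. The genes were fixed by name, with earlier results of these data known. Every 200 bp tile that overlapped a gene's RefSeq span (build GRCm38.p6) or the 5 kb on either side was taken from the authors' deposited tables. That gave 28 distinct tile positions at 4 of the 7 genes, out of 53375 positions listed in any table, and the 7 genes are among 21896 protein-coding genes in the RefSeq table. A position can be listed in up to 4 comparisons, and the 28 positions gave 47 listings, of which 27 were gains of methylation and 20 were losses.

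The proteins of this family bind cyclin-dependent kinases and slow entry into the cell cycle. The INK4 members, encoded by Cdkn2a, Cdkn2b, Cdkn2c and Cdkn2d, bind the kinases CDK4 and CDK6, which would otherwise inactivate the retinoblastoma protein. The CIP/KIP members, encoded by Cdkn1a, Cdkn1b and Cdkn1c, act on complexes of CDK2 with its cyclins and can also help cyclin D complexes to assemble. Cdkn2a also encodes, from a separate start and in another reading frame, the ARF protein, which stabilises p53. In the intestine Cdkn2a is a known barrier to growth under an active BRAF oncogene, and methylation of its promoter is a common mark of human serrated colorectal tumours.

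The assay was reduced representation bisulfite sequencing, in which restriction fragments rich in CpG sites are read, and it was applied to 8 libraries in 4 groups, with organoid lines 1 and 3 in each. The first group is BrafV600E organoids at 5 months, in which lentiviral Cre had switched on a heterozygous Cre-activable allele (Braf+/LSL) and which were selected in Base medium without stem-cell niche factors. Its control is organoids given the empty lentiviral backbone (EV) and kept in full medium for 5 months. The third group is EV organoids kept in full medium for 12 months (line 1) or 14 months (line 3), and its control is EV organoids at 2 months in full medium. All libraries are labelled with a last culture of 3 weeks, all organoids came from the proximal colon of male mice about 40 days old, and the design text derives them from mice heterozygous for Braf+/LSL, so that EV organoids are taken to hold the same allele without Cre. Oncogene and medium changed together, so their parts cannot be told apart. The labels conflict in 2 places, where the titles were followed. The source name of the BrafV600E library titled line 1 gives line 3, and the source name and culture time of the library titled and described as 14 months give 2 months.

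Each comparison is the authors' own test of 1 library against 1 library within a line, given as a signed difference in percentage points with a q-value. The tables stop at differences of 20 points and q-values of 0.01, so a tile that is missing may have changed less or may not have been covered. Lines 1 and 3 are the only replicates, the q-values compare libraries rather than conditions, and read depth is unknown. The tables held between 8263 and 29949 tiles. No methylation level or expression value was used here, so neither the starting level of a tile nor the colon identity of the organoids could be checked against markers.

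Sequences at 4 annotated starts are shown first, 3 of them touched by listed tiles and 1 not. The windows come from RefSeq (GRCm38.p6), run 5′ to 3′ on the gene's strand from 250 bases before to 50 after an annotated start, and have each CpG, the dinucleotide whose methylation is read, in capitals. For Cdkn2a the downstream start, from which the INK4A protein is made, lies in chr4:89282143-89282442 on the minus strand, and the upstream start, from which ARF is made, in chr4:89294570-89294869 on the minus strand. The third window is the start of the long non-coding RNA gene 9630013D21Rik (chr4:109657539-109657838, minus strand), where the tiles in the Cdkn2c window lie. The last is Cdkn1b (chr6:134920151-134920450, plus strand), shown as a CpG-rich start at which no tile was listed.
Ink4a start of Cdkn2a: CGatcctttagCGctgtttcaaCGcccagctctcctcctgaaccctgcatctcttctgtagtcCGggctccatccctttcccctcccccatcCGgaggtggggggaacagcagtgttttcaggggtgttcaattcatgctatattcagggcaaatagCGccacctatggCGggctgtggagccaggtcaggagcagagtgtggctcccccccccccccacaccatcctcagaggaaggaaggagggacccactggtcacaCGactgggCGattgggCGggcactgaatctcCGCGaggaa
Arf start of Cdkn2a: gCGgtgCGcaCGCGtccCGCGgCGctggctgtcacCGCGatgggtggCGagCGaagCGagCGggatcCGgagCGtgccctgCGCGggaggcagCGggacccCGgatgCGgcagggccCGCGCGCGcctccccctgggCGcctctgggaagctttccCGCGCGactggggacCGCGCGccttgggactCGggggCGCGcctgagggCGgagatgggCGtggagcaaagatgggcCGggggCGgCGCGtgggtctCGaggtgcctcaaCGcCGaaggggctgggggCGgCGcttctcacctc
9630013D21Rik start: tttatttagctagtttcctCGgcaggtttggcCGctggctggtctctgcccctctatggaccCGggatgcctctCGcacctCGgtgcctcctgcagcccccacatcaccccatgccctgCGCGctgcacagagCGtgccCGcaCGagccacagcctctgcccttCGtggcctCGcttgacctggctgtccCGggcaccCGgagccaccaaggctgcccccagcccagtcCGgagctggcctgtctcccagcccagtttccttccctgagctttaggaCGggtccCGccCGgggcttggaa
Cdkn1b start: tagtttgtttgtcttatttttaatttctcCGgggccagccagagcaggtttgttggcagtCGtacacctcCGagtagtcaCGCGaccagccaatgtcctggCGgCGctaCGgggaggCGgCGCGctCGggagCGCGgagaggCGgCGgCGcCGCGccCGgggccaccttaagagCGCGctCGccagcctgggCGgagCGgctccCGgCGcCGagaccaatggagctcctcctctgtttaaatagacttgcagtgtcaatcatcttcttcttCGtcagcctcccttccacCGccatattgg

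The Ink4a window holds 12 CpGs, the Arf window 45, the 9630013D21Rik window 18 and the Cdkn1b window 30, against a median of 7 over 32851 RefSeq windows of the same length. The motif CCGG, the cut site of the enzyme commonly used in this assay, reads the same on both strands and occurs 2, 3, 5 and 3 times in these windows, in that order. It occurs at least once in 52.8% of all windows. The enzyme itself is not given in the sources used here, and a match describes the letters only.

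Of the 7 genes, 4 had at least 1 listed tile, and 3 had none in any of the 4 comparisons. By the same rule 49.6% of all protein-coding genes had a listed tile, so the members' share is near the background. Cdkn2a had 12 listings, Cdkn2c 18, Cdkn1c 16 and Cdkn1a 1 in the authors' deposited tables. Cdkn2b (p15, chr4:89306289-89311032), Cdkn2d (p19, chr9:21288459-21291421) and Cdkn1b (p27, chr6:134920401-134925525) had 0. Cdkn2a, Cdkn2c and Cdkn1c, 3 of the 7, were listed in at least 3 of the 4 comparisons (background 19.7%), and Cdkn2c alone in all 4 (background 9.94%). The median window of the 7 genes was 15.1 kb, shorter than the 27.1 kb of all protein-coding genes, and window length was not adjusted for.

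Between BrafV600E organoids in Base medium and EV organoids of the same line, 2 of the 7 genes had a gained tile in line 1 (background 19.7%) and 2 had a lost tile (background 11.7%). In line 3 the counts were 2 genes with a gain (background 23.4%) and 4 with a loss (background 23.1%). Between long-cultured and 2-month EV organoids, 0 genes had a gain in line 1 (background 9.44%) and 1 had a loss (background 12.3%), while in line 3 the counts were 3 (background 22.3%) and 1 (background 14.1%). The counts farthest above their background were the losses with BrafV600E and the gains with long culture, both in line 3, and with 7 genes no test was made. Of the members' listings, 5 of 9 were gains in line 1 and 6 of 17 in line 3 with BrafV600E, against 67.5% and 40.4% of all listed tiles in the same authors' deposited tables. With long culture 0 of 4 were gains in line 1 and 16 of 17 in line 3, against 40.9% and 71.9%.

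**Figure D1:**
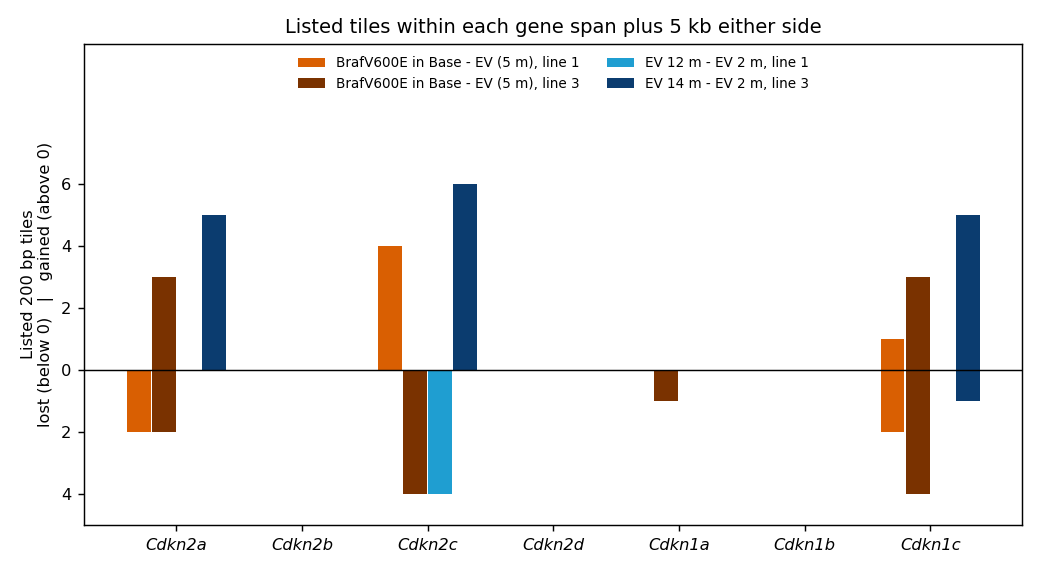
Number of listed 200 bp tiles per gene (vertical axis, gains upward and losses downward) in each of the 4 within-line comparisons (colours; EV, empty vector; m, months of culture). Cdkn2c has 4 gains in line 1 and 4 losses in line 3 with BrafV600E, and 4 losses in line 1 and 6 gains in line 3 with long culture, while Cdkn2b, Cdkn2d and Cdkn1b have no bar.

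Of the 28 positions, 6 were found within 500 bases of an annotated start of the member itself, 5 of them at Cdkn2a and 1 at Cdkn1a. None of the 7 positions in the Cdkn2c window was that close. The 28 include the 11 positions of Cdkn1c, which could not be scored. The share of all listed positions this close to a start was not computed, so the count has no background and can be called neither high nor low. Cdkn1c has no entry in the RefSeq promoter table, so its 11 positions were placed by the ends of its span. Their distance from its start was not measured, and some may lie close to it. Exons and introns were not used here, since the gene table gives spans only.

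Cdkn2a, the INK4A and ARF gene (chr4:89274473-89294619), differed at its starts in both lines with BrafV600E, but at different starts. In line 1 the loss lay at the Ink4a start. The tile chr4:89282001-89282200, which covers that start, was at -51.9 points in BrafV600E organoids against EV organoids (q = 3.94e-04), and the neighbouring tile chr4:89281801-89282000, 192 bases downstream, was at -70.3 points (q = 0.00103) in the authors' deposited table. In line 3 neither of these tiles was listed in the authors' deposited tables. The first tile shares 58 bases with the start window, with 5 of its CpGs.
Ink4a start, bases under the tile: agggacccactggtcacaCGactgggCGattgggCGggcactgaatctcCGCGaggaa

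In line 3 the loss with BrafV600E lay at the Arf start, where 2 tiles were listed. The tile chr4:89294001-89294200 was at -65.0 points (q = 1.72e-05) and the tile chr4:89294201-89294400 at -28.8 points (q = 2.29e-06) in the authors' deposited table, 419 and 219 bases downstream of the start and so outside the printed window. Line 1 had no listed tile there. The same part of the gene went the other way with long culture in line 3. There the authors' deposited table lists chr4:89294001-89294200 at 24.2 points (q = 0.00651) and chr4:89294401-89294600, 19 bases downstream of the start, at 39.1 points (q = 2.28e-10). The last tile shares 31 bases with the Arf window, with 3 of its CpGs.
Arf start, bases under the tile: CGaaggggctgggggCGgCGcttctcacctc

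Toward the far end of Cdkn2a, line 3 gained methylation in both comparisons. The tile chr4:89274601-89274800 was at 50.0 points with BrafV600E and at 41.8 points with long culture in the authors' deposited tables. The tile chr4:89272201-89272400, 2073 bases past the span, was at 25.4 and 20.7 points in these 2 comparisons of the authors' deposited tables. A further tile at chr4:89274001-89274200 gained 40.6 points with BrafV600E only, and one at chr4:89276801-89277000 gained 40.0 points with long culture only. Line 1 had no listed tile in this stretch, and in the long-culture comparison line 1 had 0 tiles anywhere at Cdkn2a. Gains and losses in line 3 with BrafV600E were thus apart in position, with 3 gains at the far end and 2 losses at the Arf start. No tile at Cdkn2a was listed in both lines.

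**Figure D2:**
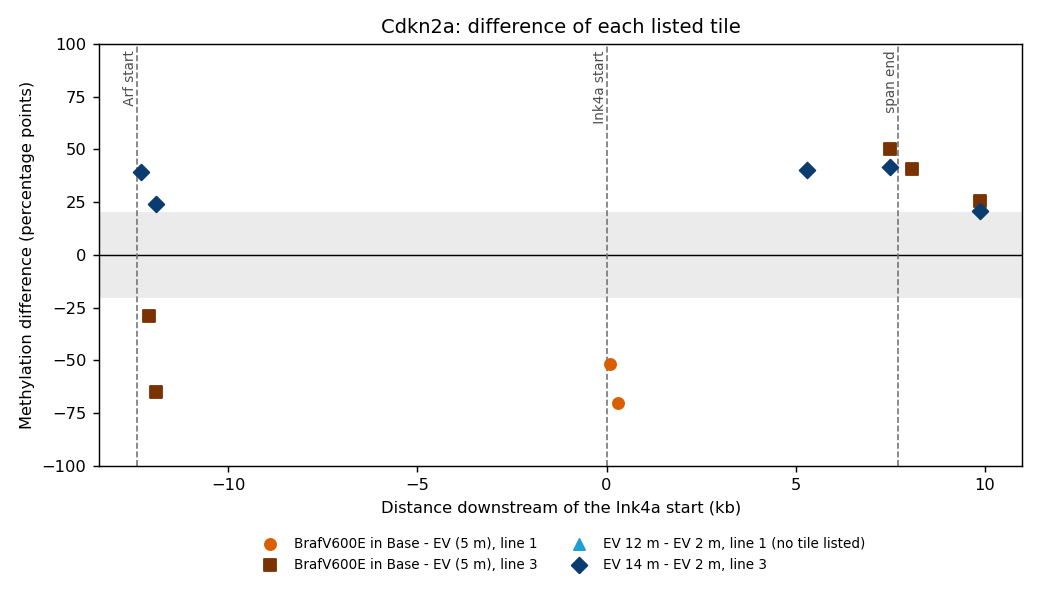
Methylation difference of each listed Cdkn2a tile (vertical axis, percentage points, first-named minus second-named group) by distance of its centre from the Ink4a start (horizontal axis, kb, downstream to the right). The shaded band marks differences under 20 points, which the tables do not list, and the dashed lines mark the starts and the end of the span. The losses of line 1 sit at the Ink4a start at -51.9 and -70.3 points and those of line 3 at the Arf start, while the far end holds gains only.

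Cdkn2b, whose product p15 is induced by TGF-beta in epithelial cells, lies 11.7 kb from Cdkn2a and had no listed tile. The nearest listed position was the Arf-start tile of Cdkn2a at 39.1 points. Its own start window holds 18 CpGs, above the median of 7 over all windows. Whether its fragments were covered is not given in the tables used here.

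Cdkn2c, which encodes the CDK4 and CDK6 inhibitor p18 (chr4:109660876-109666756), had the most listings, yet none of its 7 positions overlapped the gene. They formed 1 unbroken row of 1400 bases, chr4:109656801-109658200, between 2676 and 3876 bases beyond the gene's 3′ end. The row covers the start of 9630013D21Rik, whose span is chr4:109652427-109657588, and 3 of its tiles cover all 300 bases of the start window printed above. The nearest annotated start of Cdkn2c was over 7 kb away, so these values describe the non-coding gene's start at least as much as Cdkn2c.

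The 2 lines went in opposite directions at this row in both comparisons. With BrafV600E, line 1 had 4 gains, between 31.0 and 62.5 points with a mean of 47.4, and line 3 had 4 losses, between -54.2 and -35.2 points with a mean of -41.5, in the authors' deposited tables. With long culture the directions were exchanged. Line 1 had 4 losses, between -66.3 and -42.8 points with a mean of -50.9, and line 3 had 6 gains, between 33.5 and 40.8 points with a mean of 36.7, in the authors' deposited tables. At single tiles with BrafV600E, line 1 was at 35.9, 60.1, 31.0 and 62.5 points from chr4:109657001-109657200 to chr4:109657601-109657800 in the authors' deposited table. Line 3 was at -54.2, -41.2 and -35.2 points over the 3 tiles from chr4:109656801-109657000 on, and at -35.4 points at chr4:109657801-109658000, in the authors' deposited table. Within each of the 4 comparisons every listed tile of the row had the same sign. Neighbouring tiles are not independent, so the row counts as 1 region and not as 7 observations.

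One tile of the row, chr4:109657201-109657400, was listed in all 4 comparisons of the authors' deposited tables. It was at 60.1 points in line 1 (q = 2.76e-12) and -35.2 points in line 3 (q = 1.60e-14) with BrafV600E, and at -66.3 points in line 1 (q = 5.44e-11) and 40.8 points in line 3 (q = 4.15e-09) with long culture. Across the genome 594 tiles were listed in all 4 comparisons, and 79 of them (13.3%) had this same order of signs. The most frequent order was a gain in all 4, at 213 tiles (35.9%). The order seen at 9630013D21Rik is therefore shared by many tiles and is not particular to this locus.

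**Figure D3:**
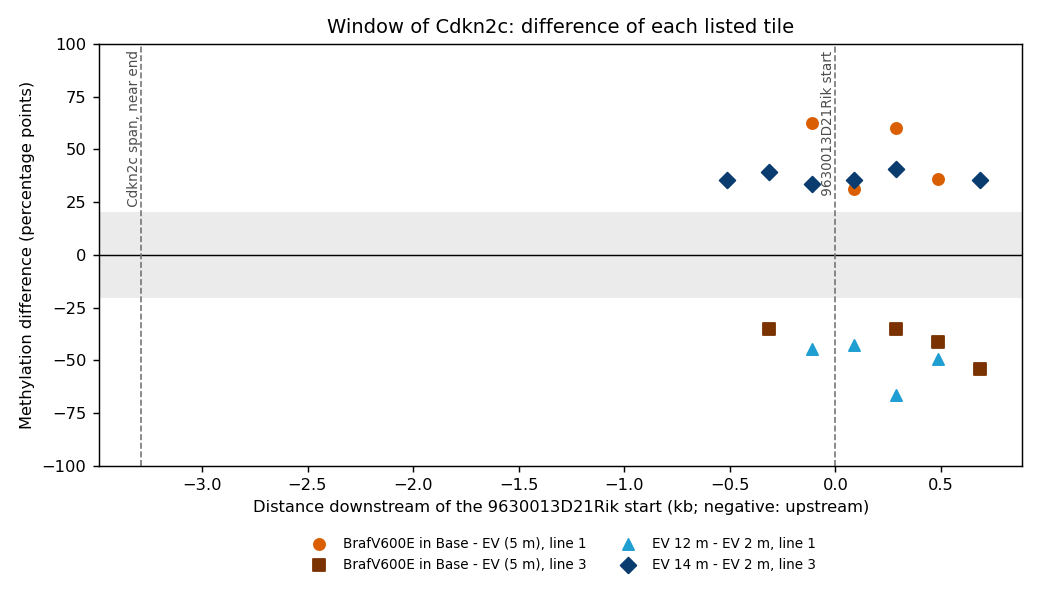
Methylation difference of each listed tile in the Cdkn2c window (vertical axis, percentage points) by distance of its centre from the 9630013D21Rik start (horizontal axis, kb, downstream to the right, with the 3′ end of Cdkn2c marked on the left). Line 1 with BrafV600E and line 3 with long culture lie above 0, and line 3 with BrafV600E and line 1 with long culture lie below 0, with no exception among the 18 points.

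Taking each gene's whole window, Cdkn2c was the 1 member with all line 1 tiles in one direction and all line 3 tiles in the other with BrafV600E (background 3.65% of all genes), and again with long culture (background 3.39%). No member had all tiles of both lines in the same direction, in either comparison (background 6.51% with BrafV600E and 4.66% with long culture). The difference between the lines was not tested, since each line has 1 library a side.

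Cdkn2d, the p19 INK4D gene, had no listed tile, and the nearest listed positions lay 21.4 and 43.1 kb from its span. Its start window holds 22 CpGs.

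Cdkn1a, which encodes the p53 target p21 (chr17:29090979-29100722), had 1 listed tile. It was at -22.4 points with BrafV600E in line 3 (chr17:29094201-29094400, q = 6.16e-06 in the authors' deposited table), 432 bases downstream of the second of its annotated starts. That start is the CpG-rich one, with 23 CpGs in its window against 2 at the first. The difference was just above the 20-point limit of the tables, line 1 did not list the tile, and neither line listed it with long culture.

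Cdkn1b, the p27 gene, had no listed tile within 5 kb, and the nearest listed positions were 32.8 and 37.7 kb away. Its start window, printed above, holds 30 CpGs.

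Cdkn1c, which encodes p57 and is imprinted, with expression from the maternal allele (chr7:143458339-143461059), had 11 listed positions of which 7 lay on the gene. With BrafV600E the largest shared difference was at the upper end of the span. The tile chr7:143461001-143461200 was at -75.0 points in line 1 (q = 4.37e-15) and -62.8 points in line 3 (q = 2.42e-13) in the authors' deposited tables, the only member tile listed in both lines with the same sign. The next tile, chr7:143461201-143461400, was at -33.3 points with long culture in line 3 (q = 4.28e-04 in the authors' deposited table).

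Inside the gene the signs were mixed. Line 3 with BrafV600E was at -77.4 points at chr7:143459001-143459200, at -30.0 points at chr7:143459401-143459600 and at 23.5 points at chr7:143460001-143460200 in the authors' deposited table. Line 1 with BrafV600E gained 25.0 points at chr7:143459601-143459800 in the authors' deposited table. With long culture line 3 gained at 4 tiles in a row, chr7:143459201-143460000, between 20.3 and 43.0 points in the authors' deposited table, the third of them at the tile that line 1 gained with BrafV600E. Line 1 had 0 listed tiles at Cdkn1c with long culture.

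Of the 4 positions above the span, the other 3 fall in the non-coding gene Gm33663 (chr7:143463335-143466498). The tile chr7:143465001-143465200 was at -47.4 points in line 1 (q = 5.16e-10) and 50.0 points in line 3 (q = 1.77e-11) with BrafV600E, and the next tile gained 62.5 points in line 3, in the authors' deposited tables. The tile chr7:143463801-143464000 was at -22.7 points with BrafV600E and 21.4 points with long culture in line 3, in the authors' deposited tables, both close to the listing limit.

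**Figure D4:**
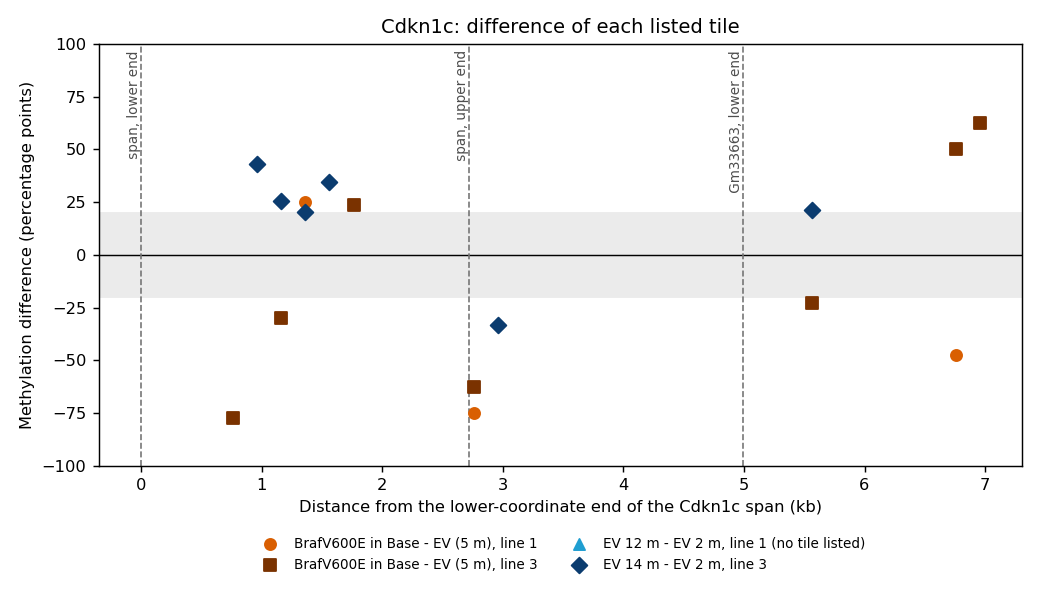
Methylation difference of each listed Cdkn1c tile (vertical axis, percentage points) by distance of its centre from the lower-coordinate end of the gene's span (horizontal axis, kb). Both lines with BrafV600E lie between -75.0 and -62.8 points at the upper end of the span, while within the span long culture in line 3 lies above 0 throughout, and at the far right the lines with BrafV600E lie on opposite sides of 0.

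With BrafV600E 4 member tiles were listed in both lines and 3 of them had opposite signs, against 26.1% of 5934 such tiles genome-wide. With long culture 3 were listed in both lines and 3 had opposite signs, against 31.5% of 3220. All but 1 of these 6 opposite pairs lie in the row at 9630013D21Rik, so they describe chiefly 1 region.

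BrafV600E and long culture also differed from each other in sign within a line. In line 1, 4 member tiles were listed in both comparisons and 4 had opposite signs, against 51.1% of 2384 such tiles genome-wide, and all 4 were in the row at 9630013D21Rik. In line 3, 8 member tiles were listed in both comparisons and 6 had opposite signs, against 48.1% of 6964. The 2 with the same sign were the far-end gains of Cdkn2a. These comparisons use different control libraries, EV at 5 months and EV at 2 months.

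The window of 5 kb set which tiles counted. The tile farthest out that was still counted lay 4142 bases above Cdkn1c, at 62.5 points. The nearest tile outside a gene's own window lay 11.7 kb from Cdkn2b, and it was counted at Cdkn2a. For Cdkn1c the nearest positions left out were 12.1 kb below, at 26.4 points, and 13.9 kb above, at 68.9 points, both in line 3 of the authors' deposited tables.

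Genes with listings most like those of a member were ranked by the distance of mean differences, over the comparisons in which the member was listed. For Cdkn2c, over 4 comparisons and among 2176 genes listed in all 4, these were Ptgis, a prostacyclin synthase gene, at a distance of 6.78 points, the homeobox gene Dlx5 at 7.73 and the citrate transporter gene Slc13a5 at 10.6. For Cdkn2a, over 3 comparisons and among 1207 genes, they were Pip4k2c at 10.1, Htra1 at 11.5 and Astn2 at 14.7 points. For Cdkn1c they were Ap1s1 at 14.2, Abca4 at 15.0 and Vgf at 18.4 points. Ap1s1 and Vgf share their mean in 2 of the comparisons. The mean of Cdkn2a in line 3 with BrafV600E and all 3 means of Cdkn1c mix gains with losses, so likeness to them says little about single tiles.

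A further 66 genes, of the pathway or beside the members on the chromosome, were counted in 5 lists. Over all protein-coding genes with BrafV600E, 19.7% had a gain and 11.7% a loss in line 1, and 23.4% and 23.1% in line 3. With long culture the shares were 9.44% and 12.3% in line 1, and 22.3% and 14.1% in line 3. All tiles of both lines went the same single way at 6.51% of genes with BrafV600E and at 4.66% with long culture. The list counts were not tested against these shares, and window length was not adjusted for. A counted tile may lie up to 5 kb off its gene, and where it lay relative to the gene was not examined for these lists. Among 13 cyclin and kinase genes, with BrafV600E 4 had a gain and 1 a loss in line 1, and 2 and 1 in line 3. Ccnd2, the cyclin D2 gene, was the 1 gene that only gained in both lines, at means of 26.9 and 34.7 points over 3 and 2 tiles of the authors' deposited tables. With long culture 1 gene gained and 1 lost in line 1, and 5 and 2 did so in line 3. There Ccna1, the cyclin A1 gene, gained in both lines, at 26.7 and 59.9 points over 1 and 3 tiles of the authors' deposited tables.

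Among 13 RB and E2F genes, which act below the kinases, 3 gained and 0 lost in line 1 with BrafV600E, and 4 gained and 1 lost in line 3. With long culture 2 gained and 6 lost in line 1, while 1 gained and 0 lost in line 3. None went the same single way in both lines. In the p53 arm, 6 genes were counted and Trp73, a p53 relative, was the only 1 listed with BrafV600E, with both gains and losses in each line. With long culture Trp73 was again the only 1 listed, with gains and losses in line 1 and gains in line 3.

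Among 22 genes known to act on the inhibitors, 9 had a gain and 5 a loss in line 1 with BrafV600E, and 12 and 6 in line 3. Genes were named here for a single direction in both lines, which 5 of the 22 had with BrafV600E and 2 with long culture. Genes whose lines differed in sign were not named for it. Cbx8, a Polycomb gene whose product represses Cdkn2a, gained in both lines with BrafV600E, at means of 59.5 and 47.9 points over 6 and 7 tiles of the authors' deposited tables, and with long culture, at 51.2 and 42.3 points over 1 and 2 tiles. Ets1, a transcription factor that activates the INK4A promoter in human cells, gained 86.8 and 64.3 points over 2 tiles in each line with BrafV600E in the authors' deposited tables. With BrafV600E Foxo1 gained 52.7 and 31.7 points over 1 and 2 tiles of the authors' deposited tables. Foxo3, which like Foxo1 can activate Cdkn1b, was at -45.8 and -38.6 points over 1 and 3 tiles in the same comparison. Cbx7, another Polycomb repressor of Cdkn2a, was at -82.0 and -55.0 points with long culture, over 2 and 1 tiles of the authors' deposited tables. With long culture 3 of the 22 had a gain and 4 a loss in line 1, and 8 and 8 in line 3.

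Among 12 neighbours of the clusters, 1 had a gain and 2 a loss in line 1 with BrafV600E, and 5 and 4 in line 3. Phlda2, an imprinted gene of the Cdkn1c domain, was at -64.7 and -34.5 points with BrafV600E over 1 tile in each line of the authors' deposited tables, and it shares its line 1 tile with its neighbour Slc22a18. Dmrta1, beyond Cdkn2b on chromosome 4, had 5 gains with a mean of 44.5 points in line 1 and 5 losses with a mean of -45.4 points in line 3 with BrafV600E in the authors' deposited tables. With long culture 0 neighbours were listed in line 1, and 5 gained and 2 lost in line 3. Cd81, Tssc4 and Trpm5 share 1 gained tile in line 3 in each comparison, at 62.1 points with BrafV600E and at 26.7 points, in a neighbouring tile, with long culture in the authors' deposited tables, so 3 of the 5 genes with a gain in each rest on it. Dmrta1, Trp73 and these 3 genes were named after their values were seen.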

How the data were processed

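Libraries of reduced representation bisulfite sequencing were made from mouse colon organoids. Tools named in the submitters' processing notes are methylKit 1.7.4, the aligner Bismark 0.14.3, the trimmer Trim Galore 0.4.4 and, for read quality, FastQC 0.11.7, with the build GRCm38 (mm10). Their settings, the restriction enzyme and the coverage minimum were not given in these sources. The authors deposited 8 tables, which hold, per the file headers, 200 bp tiles, each with its q-value and p-value and with a signed methylation difference in percentage points, split into gains and losses for each of 4 within-line comparisons. They hold no read counts, so depth is unknown and no interval for a tile is given. No test across the 2 lines was made, since the tables hold only tiles past their limits and an exact test over 2 lines cannot pass the usual threshold.

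Tiles overlapping the RefSeq span (GRCm38.p6) of each gene plus 5 kb on either side were counted with pandas 2.3.3 under Python 3.11.15. The counting was tested on simulated data. The background is the share of 21896 protein-coding genes with a tile in the same window. RefSeq start windows gave sequences for 6 of the 7 genes. All 7 genes were described whatever they showed. From each list of pathway genes or neighbours, genes with a single direction in both lines were named, at most 4 per comparison. They were ranked by tile count and size. Dmrta1, Trp73, Cd81, Tssc4 and Trpm5 fall outside this rule and were chosen after their values were seen. Genes and lists were chosen with earlier results of these data known. Alternatives were other windows, a difference of at least 40 points, a q-value under 0.001 and leaving out either line.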

Additional observations from a re-analysis of the deposited data

Results flagged for a closer look

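The following 3 results stood out because the lines moved in opposite directions under the same comparison, and none of these differences was tested. In the Cdkn2c window, at the 9630013D21Rik start, line 1 minus line 3 was 88.9 points with BrafV600E (means of 47.4 and -41.5 points). With long culture it was -87.6 points (means of -50.9 and 36.7 points). In both comparisons the means of the 2 lines are over partly different tiles. At the tile chr7:143465001-143465200 above Cdkn1c, line 1 minus line 3 was -97.4 points with BrafV600E (-47.4 and 50.0 points). These are values of the authors' deposited tables, with 1 library a side. No difference under 20 points is listed there, so listed values of opposite sign always lie far apart. Whether coverage, the mixed labels of the line 1 BrafV600E and 14-month libraries or the starting level of the tiles had a part in them was not tested.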

How the results depend on the processing

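With BrafV600E the members had 11 gained and 15 lost tiles over both lines, and with long culture 16 and 5. A window of 10 kb left all 4 counts as they were. With 1 kb on either side they were 4 and 9 with BrafV600E and 8 and 1 with long culture, and with the span alone 3 and 9, and 8 and 0, because the row near Cdkn2c, tiles above Cdkn1c and far-end tiles of Cdkn2a drop out. A difference of at least 40 points left 6 gained and 9 lost tiles with BrafV600E and 4 gained tiles with long culture, and a q-value under 0.001 left 3 lost tiles with long culture. Leaving out 1 line gave 5 to 6 gained and 4 to 11 lost tiles with BrafV600E, and 0 to 16 gained and 1 to 4 lost tiles with long culture; the gains with long culture all came from line 3. The mean of Cdkn2a in line 3 with BrafV600E, 4.45 points over gains and losses together, turned to -0.793 points with 1 kb on either side and to -14.6 points with the span alone, since far-end gains drop out. No other mean of a member in a line changed sign. No paired analysis was possible because these counts come from no test; the deposited differences are already taken within a line. Without read counts, the precision of each tile is unknown.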
